A study of Mus musculus with 12 samples.

Results

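Exosomes of bone-marrow-derived dendritic cells from mice labelled Sidt1/Sidt2 double knock-out were compared with exosomes of wild-type dendritic cells, gene by gene. The comparison took in every gene of the count table with a known place outside chromosomes X and Y, 23990 of 27179 identifiers. Of these, 11471 had enough counts to be tested, 6370 had no count in any exosome library and 6149 had counts too low for the test. The series held 12 samples in 4 groups of 3, and 6 of them were the exosome samples used here. The wild-type (WT) exosomes came from mice 33 and 42, both female, and mouse 46, a male, and the exosomes labelled double knock-out (DKO) came from mice 151, 152 and 153, all male. All mice are given as C57Bl/6, with no age. Marrow from each mouse was grown for 7 days with GM-CSF-containing supernatant of X-63 cells, and exosomes, small vesicles released by cells, were collected from the medium by ultrafiltration and ultracentrifugation. The labels give one culture protocol for both genotypes, with serum and growth factor supernatant, both of which can carry vesicles of their own. The labels do not say which exons of either gene were targeted.

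SIDT1 and SIDT2 are mammalian relatives of SID-1, the nematode membrane protein that lets double-stranded RNA pass between cells. SIDT2 sits mainly in the membranes of lysosomes and late endosomes, the compartments in which exosomes form and where internalised RNA meets Toll-like receptors. Dendritic cells load peptides on MHC class II in related compartments, and their exosomes are known to carry class II proteins, tetraspanins and RNA.

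Total counts ran from 8200062 to 22236435 in WT exosomes and from 7215083 to 16348101 in exosomes labelled DKO, so a gene without a count could lie at up to 0.135 to 0.416 CPM by counting error alone (a limit of 3 counts). Levels below are CPM, counts scaled to a common library size by the TMM method. Fold changes are on the log2 scale, libraries labelled DKO over WT, with an approximate standard error. It is the size of the log2 fold change over the square root of the test's F statistic, and the 95% intervals of fold changes rest on it. For genes near 0 counts in a group, such as Sidt1 and Cadm1, it can be smaller than counting error alone. The WT exosomes of mouse 33 stood apart: the first principal component, with 59.4% of the variance over 1000 variable genes, placed that library at 69.81 and the other 5 between -21.04 and 1.80. That library was the highest of the 6 for 31.3% of the genes tested and the lowest for 36.6%. The WT exosomes of mouse 46 held the most mitochondrial RNA, 11.04% of counts against 2.26% to 5.58% in the other libraries (95% Wilson intervals, which cover counting error only, no wider than 0.018 points on each side). In bulk vesicle RNA, fewer vesicles from one kind of cell and less of an RNA per vesicle cannot be told apart. Dendritic cell markers were present, with 33 of 34 listed genes counted and only Cd209e at 0 in all 6 libraries. Their summed level was 3598 to 3702 CPM in WT and 2831 to 2971 CPM in exosomes labelled DKO, beside 55770 to 72120 CPM for the 29 macrophage markers, which these cultures also express.

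Only 4 genes differed at an adjusted p below 0.05 (edgeR's quasi-likelihood F test, adjusted over all genes tested), 0.0349% of the 11471 tested. Sidt2 fell, and Sidt1, the phosphoinositide-binding FYVE protein gene Wdfy1 and the cell adhesion gene Cadm1 rose. The next gene stood at an adjusted p of 0.327. Without the WT exosomes of mouse 46, 137 genes were called, 9 higher and 128 lower, and 6 without those of mouse 33. Below an unadjusted p of 0.05 were 945 genes, or 8.24%, of which 341 (2.97%) were higher and 604 (5.27%) lower in the libraries labelled DKO, a split that became 841 and 200 under total-count scaling. For 1677 genes, or 14.6%, the 3 libraries of a group all exceeded the 3 of the other, and of these 855 (7.45%) were higher and 822 (7.17%) lower. In what follows, genes past an unadjusted p of 0.05 but not called are given by their values and counts only. Those named for the smallest p in a direction were chosen among genes whose groups did not overlap. Their separation is thus no added evidence.

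Sidt2 (GRCm38 chromosome 9, 45937857 to 45958000) had 2218, 6197 and 2121 counts in the WT exosomes of mice 33, 42 and 46, or 296, 278 and 202 CPM. Exosomes labelled DKO held 14, 13 and 18 counts, which is 0.901, 0.789 and 2.20 CPM. The groups were far apart, and Sidt2 fell by 7.76 ± 0.39 on the log2 scale (adjusted p = 0.000149). Its relative Sidt1 (chromosome 16, 44240177 to 44333212) ran the other way. WT exosomes held 0, 3 and 4 counts of Sidt1, or 0 to 0.380 CPM, against 483, 440 and 309 counts in the libraries labelled DKO, where levels were 31.1, 26.7 and 37.8 CPM. Over the groups that is a ratio of 190 in counts per total (95% counting interval 92.1 to 475), and Sidt1 rose with a log2 fold change of 7.43 ± 0.49 (adjusted p = 0.000844). Sidt1 counts thus went against the DKO label, which is why the libraries are called by their label. Per length, Sidt2 reached 82.9 ± 18.3 TPM in WT exosomes and Sidt1 12.4 ± 3.44 TPM in those labelled DKO (SD, n = 3).

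Wdfy1, whose protein binds endosomes and has been tied to Toll-like receptor signalling, lies on chromosome 1 (79702262 to 79776143). Its levels were 4.14, 8.10 and 6.94 CPM in WT exosomes and 82.4, 69.0 and 75.5 CPM in those labelled DKO. No library of one group came near the other, and Wdfy1 rose with a log2 fold change of 3.53 ± 0.26 (adjusted p = 0.00134). None of the 32 tested genes within 5 Mb of Wdfy1 was called. Cadm1, an immunoglobulin-family adhesion molecule also used as a marker of one branch of dendritic cells, lies 1.75 Mb from Sidt2 on chromosome 9 (47530170 to 47862280). Its counts were 0, 3 and 6 in WT exosomes and 183, 234 and 93 in those labelled DKO, or 0, 0.134 and 0.570 against 11.8, 14.2 and 11.4 CPM. The group ratio was 61.3 in counts per total (95% counting interval 32 to 135), and Cadm1 rose with a log2 fold change of 5.70 ± 0.64 (adjusted p = 0.0325). Its call was lost with sex as a covariate (adjusted p = 0.0982) and without the exosomes of WT mouse 42 (0.382), or of mouse 151 (0.404), 152 (0.579) or 153 (0.274), within 9.25e-17 to 0.579 over its alternatives. Its log2 fold change was 4.43 with sex as a covariate and 5.24, 5.73, 5.61 and 5.75 in those 4 fits without a library. The other 3 called genes kept their call in all 16 alternative fits.

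**Figure D1:**
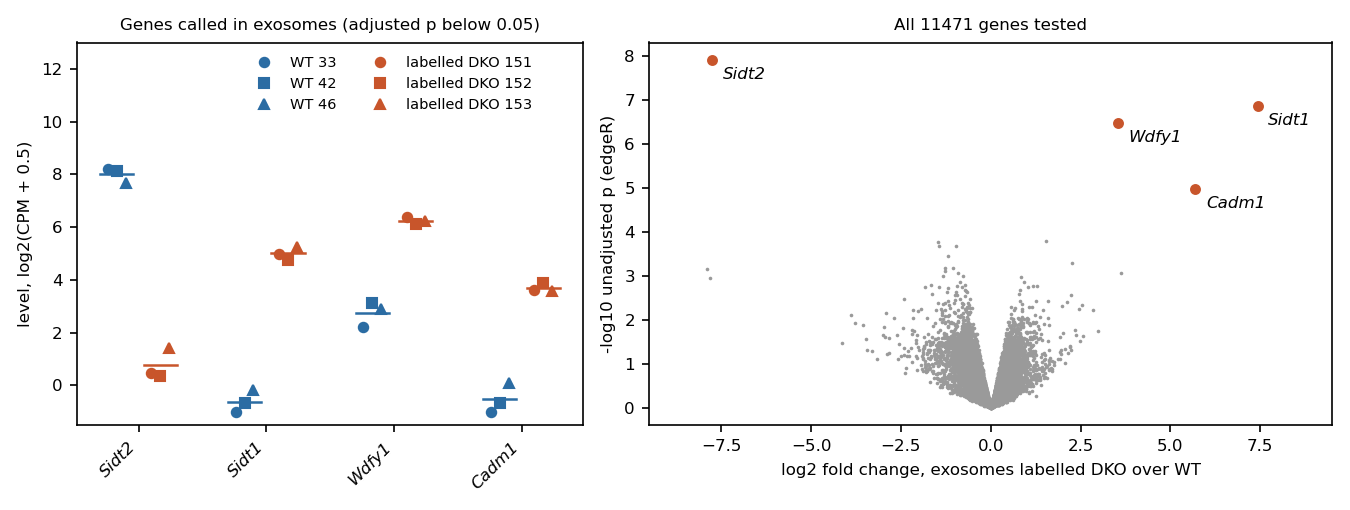
Left, level of each called gene in each exosome library, as log2(CPM + 0.5), with WT in blue, libraries labelled DKO in orange and a line at each group mean of 3 libraries. Right, log2 fold change (x axis) against -log10 of the unadjusted p (y axis) for the 11471 genes tested, where the 4 called genes, in orange, stand clear of the rest.

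Other differences lay close to Sidt2 on chromosome 9. Of 73 genes tested within 5 Mb of it, 20 (27.4%) had an unadjusted p below 0.05, 6 higher and 14 lower in the libraries labelled DKO, against 8.24% of all genes tested. For 24 of the 73 (32.88%) the libraries of the groups did not overlap, against 14.6% of all genes tested. The share was 9.30% for the 43 genes 5 to 10 Mb away, 12.15% for the 107 genes 10 to 20 Mb away (1 higher, 12 lower) and 9.30% for the 430 genes more than 20 Mb away on that chromosome. Around Sidt1 the same threshold was passed by 2 of 23 genes (8.70%) within 5 Mb, 9 of 49 (18.37%) at 5 to 10 Mb and 8 of 70 (11.43%) at 10 to 20 Mb. Cadm1 was the only one of the 73 to be called, and the adjusted p of the others was at least 0.327.

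Several of these neighbours differed by several fold at low counts. Mcam, the adhesion molecule CD146, lies 1.81 Mb from Sidt2 and stood at 0.134, 0.134 and 0.570 CPM in WT exosomes and at 4.12, 2.55 and 3.67 CPM in those labelled DKO (log2 fold change 3.63 ± 0.74, adjusted p = 0.552). Il18, the gene of the inflammasome-processed cytokine interleukin 18, lies 4.62 Mb away. It stood at 3.87, 6.63 and 7.51 CPM against 23.4, 47.2 and 16.3 CPM (log2 fold change 2.26 ± 0.43, adjusted p = 0.552). In both genes every library labelled DKO lay above every WT library, as their choice required. On the lower side, Cd3g, a chain of the T cell receptor complex, had 79 counts over the WT exosomes and 0 over those labelled DKO, at least 24.3-fold lower with the limit of 3 counts taken over the group. Plet1os, singled out after its values were seen, also had 79 counts against 0, with the same bound. It overlaps Plet1, and the sources used here do not give the strand setting of the counting, so reads of this pair cannot be told apart where they overlap. Plet1, a surface marker of a dendritic cell subset, stood at 85.2, 128 and 173 CPM against 59.2, 54.6 and 46.1 CPM.

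Other neighbours had WT libraries that all lay above those labelled DKO. Jaml, an adhesion receptor of leukocytes 0.85 Mb from Sidt2, stood at 22.2, 22.8 and 26.5 CPM in WT exosomes and at 7.53, 10.99 and 7.83 CPM in those labelled DKO (log2 fold change -1.43 ± 0.24, adjusted p = 0.327). Cbl, an E3 ubiquitin ligase that turns off receptor signalling, stood at 44.7, 37.1 and 23.6 CPM against 16.3, 10.9 and 14.3 CPM (log2 fold change -1.34 ± 0.28, adjusted p = 0.552). Slc37a4, the glucose 6-phosphate carrier of the endoplasmic reticulum, stood at 50.5, 28.5 and 18.4 CPM against 13.2, 8.62 and 8.44 CPM (log2 fold change -1.67 ± 0.38). The WT library of mouse 46 was the closest to the libraries labelled DKO for Cbl and Slc37a4, but not for Jaml.

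**Figure D2:**
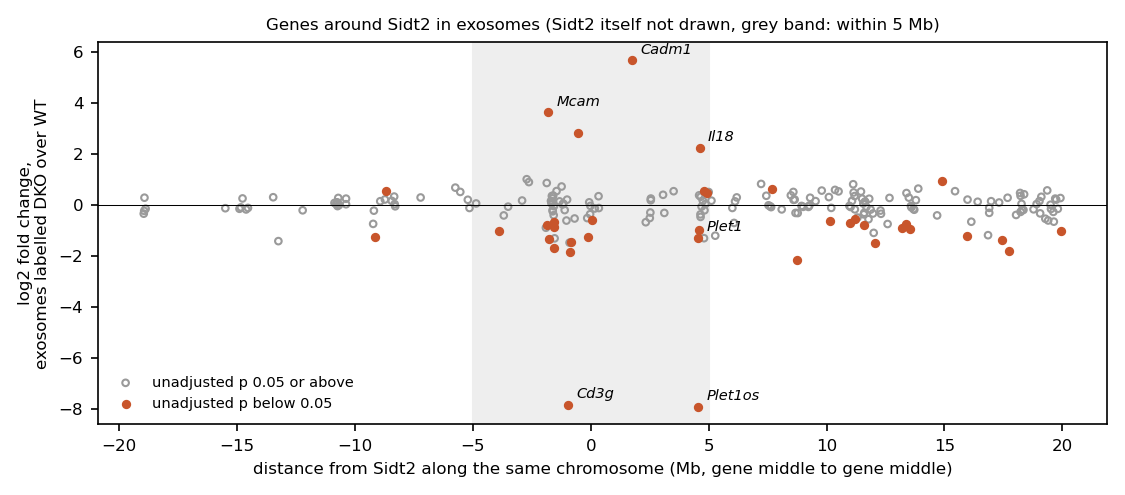
Log2 fold change in exosomes (y axis, labelled DKO over WT) of genes on the chromosome of Sidt2 against their distance from it in Mb (x axis). Orange points have an unadjusted p below 0.05, and they make up 20 of the 73 genes in the grey band, within 5 Mb, while the fitted values of Cd3g and Plet1os, at 0 counts in exosomes labelled DKO, depend on the prior count of the fit.

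Among the genes that were not called, the smallest p on the higher side belonged to Fabp7, a fatty acid binding protein. It stood at 10.3, 12.8 and 13.7 CPM in WT exosomes and at 27.2, 45.7 and 34.4 CPM in those labelled DKO (log2 fold change 1.54 ± 0.25, adjusted p = 0.327). Pparg, a lipid-sensing nuclear receptor that shapes macrophages and dendritic cells, stood at 27.6, 26.5 and 31.0 CPM against 57.2, 45.5 and 49.3 CPM (0.84 ± 0.17). Both genes were chosen among those whose groups did not overlap, and their WT libraries lay close to each other. Rfc1, the large subunit of the clamp loader of DNA replication, stood at 18.8, 21.7 and 22.8 CPM against 46.0, 32.3 and 42.2 CPM. Ppip5k1, an inositol pyrophosphate kinase, stood at 4.01, 7.39 and 6.27 CPM against 16.03, 14.4 and 13.2 CPM. Vps13c, a lipid transfer protein of late endosomes and mitochondria, had a log2 fold change of 1.19 ± 0.27. All its libraries labelled DKO lay above all WT libraries, as its choice required. Of the 35 genes of cholesterol, fatty acid and LXR pathways tested, 4 were higher and 4 lower at an unadjusted p below 0.05. Over all genes 2.97% were higher and 5.27% lower. In that list 0 were called, with a median log2 fold change of -0.11 beside -0.01 for all genes tested. Pparg and the oxysterol receptor Nr1h3 (0.92 ± 0.34) were among the higher, and the desaturase Scd2 (-0.71 ± 0.24) among the lower.

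MHC class II genes stood lower in the libraries labelled DKO, without a called member. Class II molecules present peptides to helper T cells, and their genes share a promoter module that ends in a Y box, the binding site of the factor NF-Y. Promoter sequences of H2-Aa and H2-Eb1 (RefSeq, GRCm38.p6, 250 bases before to 50 after the start of the gene, read on the gene's strand) are shown because both hold a Y box, searched as CTGATTGG or CCAATCAG on either strand and set in capitals. The H2-Aa window is chr17:34287774-34288073 on the minus strand and that of H2-Eb1 is chr17:34305617-34305916 on the plus strand.
H2-Aa: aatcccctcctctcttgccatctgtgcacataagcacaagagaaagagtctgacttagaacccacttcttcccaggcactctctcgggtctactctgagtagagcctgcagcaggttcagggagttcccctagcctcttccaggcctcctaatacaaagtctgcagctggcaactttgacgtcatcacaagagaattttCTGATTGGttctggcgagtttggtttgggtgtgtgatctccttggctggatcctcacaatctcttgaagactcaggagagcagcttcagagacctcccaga
H2-Eb1: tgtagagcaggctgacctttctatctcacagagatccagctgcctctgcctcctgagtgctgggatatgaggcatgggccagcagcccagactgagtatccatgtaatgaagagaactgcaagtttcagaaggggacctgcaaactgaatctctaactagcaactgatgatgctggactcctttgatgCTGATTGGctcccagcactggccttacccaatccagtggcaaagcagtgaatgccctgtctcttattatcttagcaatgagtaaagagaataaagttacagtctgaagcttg
The box begins 51 bases before the start of H2-Aa and 62 bases before that of H2-Eb1. Of the 32851 promoters of the same length, 4.1% hold these letters, which describes the windows and is not a measure of binding. The windows of the class II genes H2-DMa and H2-DMb1 do not hold these exact letters. The shorter stretch gattgg does stand in the H2-DMb1 window and in a window of H2-DMa. The exact search therefore cannot say that these genes lack a Y box.

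H2-Aa, the alpha chain of I-A, stood at 1517, 965 and 1051 CPM in WT exosomes and at 595, 705 and 539 CPM in those labelled DKO (log2 fold change -0.94 ± 0.21, adjusted p = 0.552). H2-Ab1, its beta chain, stood at 610, 514 and 601 CPM against 340, 391 and 318 CPM (-0.72 ± 0.16). H2-Eb1, the beta chain of I-E, stood at 953, 670 and 705 CPM against 406, 476 and 411 CPM (-0.85 ± 0.18). In these genes the lowest WT library lay above the highest library labelled DKO. The invariant chain gene Cd74 stood at 1620, 1723 and 2107 CPM against 1143, 1113 and 1113 CPM (-0.69 ± 0.16). Of the 17 class II presentation genes tested, 8 were lower and 0 higher at an unadjusted p below 0.05, where 5.27% of all genes were lower. With no overlap 7 were lower, where 7.17% of all genes were. Their median log2 fold change was -0.49, and -0.40 with 6 lower without the WT exosomes of mouse 33. The number lower was 5 without mouse 151, and 5 with a median of -0.33 under total-count scaling. Among 23 MHC class I presentation genes the median was -0.09, with 3 lower and 0 higher, of which the peptide transporter Tap1 (-0.65 ± 0.21) and the immunoproteasome subunit Psmb10 (-0.48 ± 0.16) had the smallest p.

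Several chemokine genes also stood lower in the libraries labelled DKO. Ccl22 and Ccl17, which encode ligands of the receptor CCR4, are products of maturing dendritic cells. Ccl22 stood at 355, 295 and 286 CPM in WT exosomes and at 160, 174 and 140 CPM in those labelled DKO (log2 fold change -0.98 ± 0.16, adjusted p = 0.327). Ccl17 stood at 929, 682 and 886 CPM against 280, 444 and 365 CPM (-1.20 ± 0.21, adjusted p = 0.481). Both had WT libraries that all lay above those labelled DKO, as their choice required. The inflammatory chemokines Ccl4 and Ccl2, which draw monocytes and other leukocytes, had log2 fold changes of -0.80 ± 0.18 and -0.73 ± 0.17. Of 28 chemokines and chemokine receptors tested, 9 were lower and 0 higher at an unadjusted p below 0.05, where 5.27% of all genes were lower. With no overlap 10 were lower, where 7.17% of all genes were, and 0 were called. The median was -0.26, or -0.10 under total-count scaling, which moved the median of all genes from -0.01 to 0.15. Ccl6, the most abundant chemokine per length, stood at 25790 ± 2012 CPM in WT exosomes and 22820 ± 3947 CPM in those labelled DKO (SD, n = 3), with libraries that overlapped (log2 fold change -0.18 ± 0.18).

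Markers of dendritic cells and their maturation, a list that includes Ccl17 and Ccl22, had 14 of 30 tested genes lower and 0 higher at an unadjusted p below 0.05, with 0 called. Of all genes, 5.27% were lower at that threshold. The median log2 fold change was -0.64, and 12 genes were lower and 1 higher with no overlap, where 7.17% and 7.45% of all genes were. Pdcd1lg2, the gene of the checkpoint ligand PD-L2, stood at 29.0, 22.7 and 27.6 CPM in WT exosomes and at 8.44, 10.8 and 15.9 CPM in those labelled DKO (-1.18 ± 0.27). Fscn1, the actin-bundling protein of mature dendritic cells, stood at 40.5, 57.4 and 29.4 CPM against 13.7, 22.1 and 19.3 CPM (-1.21 ± 0.29). The count of lower genes was 13 of 32 without the WT exosomes of mouse 33, 13 of 32 without those of mouse 46 and 6 of 30 with sex as a covariate, where the WT side rests on the male mouse 46. The median was -0.57, -0.67 and -0.35 in those fits.

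Other genes with small p and lower levels in the libraries labelled DKO are known from antigen-presenting cells or GM-CSF signalling. Tmem176b, a membrane protein of dendritic cells, stood at 71.6, 44.5 and 48.8 CPM in WT exosomes and at 15.97, 21.1 and 22.01 CPM in those labelled DKO (log2 fold change -1.48 ± 0.24, adjusted p = 0.327). The galactose-type lectins Clec10a (-1.04 ± 0.20) and Mgl2 (-0.90 ± 0.18) gave 27.8 ± 4.001 against 13.5 ± 0.937 CPM and 200.5 ± 42.8 against 108 ± 1.78 CPM (SD, n = 3). Traf1, an adaptor of TNF receptors and an NF-kB target, stood at 28.6, 26.3 and 19.3 CPM against 8.63, 12.3 and 9.78 CPM (-1.27 ± 0.25). The cytokine signalling inhibitors Socs1 and Cish, both induced by GM-CSF, had log2 fold changes of -0.72 ± 0.18 and -0.58 ± 0.17. Of 13 genes of the GM-CSF and M-CSF receptor list they were the 2 lower ones at an unadjusted p below 0.05, with 0 higher. The median of that list was -0.08, and 3 were lower and 0 higher with no overlap. Of 28 macrophage markers, 2 were higher and 3 lower at the same threshold, with a median of 0.03, and 4 were lower and 0 higher with no overlap. Of all genes, 2.97% were higher and 5.27% lower at that threshold, and 7.45% were higher and 7.17% lower with no overlap. The macrophage markers were led by Mgl2 and the complement gene C1qa (-0.63 ± 0.20) on the lower side and by the lipase Lpl (1.00 ± 0.38) on the higher.

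**Figure D3:**
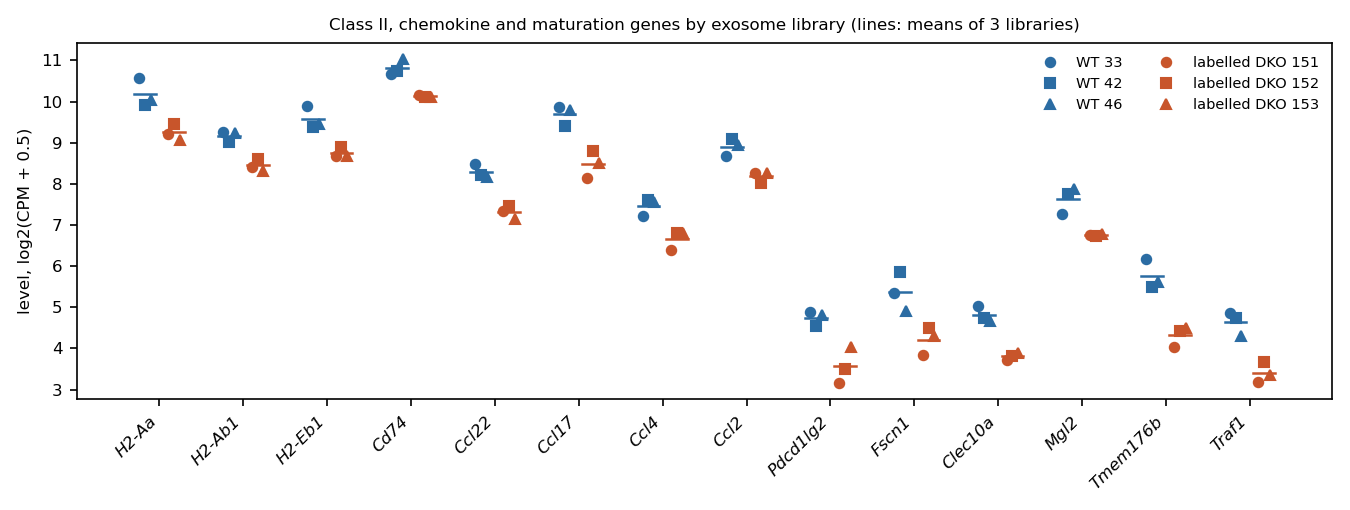
Levels of 14 class II, chemokine and maturation genes, as log2(CPM + 0.5) (y axis), in each of the 3 WT (blue) and 3 labelled DKO (orange) exosome libraries, with a line at each group mean. In each of the 14 genes the WT libraries lie above those labelled DKO, and none of them was called. Ccl22, Ccl17, Clec10a, Mgl2, Tmem176b and Traf1 were chosen among genes whose groups did not overlap.

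Interferon-stimulated genes, which respond when RNA sensors are engaged, showed no called member. Of 49 tested, 4 were lower and 0 higher at an unadjusted p below 0.05, where 5.27% of all genes were lower, and 10 were lower and 1 higher with no overlap, where 7.17% of all genes were lower. The median log2 fold change was -0.03. Without the WT exosomes of mouse 46 the list had 5 higher and 2 lower and a median of 0.13, and without mouse 152 it had 4 higher and 2 lower and a median of 0.05. With sex as a covariate, 1 was lower and the median was -0.24, and without mouse 151 1 was lower. Ifitm3, a membrane protein that blocks viral fusion, stood at 572, 375 and 374 CPM in WT exosomes and at 266, 262 and 284 CPM in those labelled DKO (-0.70 ± 0.20, adjusted p = 0.552). Ifi27l2a (-0.74 ± 0.24), Ifi35 (-0.52 ± 0.20) and the transcription factor Irf7 (-0.54 ± 0.22) were the other 3. Of 30 RNA sensors and their signalling genes 2 were lower and 0 higher, with a median of -0.01. They were Irf7 and Tlr9, an endosomal receptor of DNA, which stood at 5.21, 4.88 and 4.56 CPM against 2.64, 2.79 and 1.83 CPM. The RNA-editing enzyme Adar was not called, and the 95% interval of its log2 fold change, -0.91 to 0.02, reaches past 0.

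Genes for handling small RNA and for making vesicles gave few differences at an unadjusted p below 0.05. Unless said otherwise, the counts below use that threshold, where 2.97% of all genes were higher and 5.27% lower. Of 22 genes of small RNA processing and Argonaute proteins, 1 was higher and 0 lower at an unadjusted p below 0.05. This was Tut7, a uridylating enzyme of microRNA precursors (0.85 ± 0.28), whose WT and DKO libraries overlapped. Of 25 RNA-binding proteins linked to sorting of RNA into vesicles, 2 were higher and 1 lower. The lower one was Hnrnpa1, a splicing and export factor (log2 fold change -0.59 ± 0.20). The cold shock protein Ybx1, known for sorting microRNA into exosomes, did not pass that threshold (95% interval -0.04 to 0.79). Of 44 extracellular vesicle genes 1 was higher and 1 lower, with a median of 0.08. These were the ESCRT-I subunits Vps37a (0.72 ± 0.25) and Vps37b (-1.18 ± 0.48). With no overlap, 6 of the 44 were higher and 1 lower, where 7.45% and 7.17% of all genes were. By the same measure 1 of the 22 small RNA genes was higher and 0 lower, and 0 of the 25 sorting genes were higher and 2 lower. For Vps37b the libraries overlapped, and its log2 fold change was 0.38 with sex as a covariate. Lysosomal genes, 46 in all, had 2 higher and 0 lower and a median of 0.02. They were the proton pump subunit Atp6v0d2, at 863, 1112 and 1296 CPM in WT exosomes and 1860, 1705 and 1679 CPM in those labelled DKO (0.68 ± 0.19), and the protease Ctsk (0.65 ± 0.20). The libraries of the groups did not overlap for either.

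Ribosomal protein transcripts stood lower in the libraries labelled DKO, a difference that shrank without the WT exosomes of mouse 33. Their summed level was 46110, 23850 and 18210 CPM in WT exosomes against 16750, 19970 and 15550 CPM in those labelled DKO. WT mouse 42 thus also lay above every library labelled DKO, and WT mouse 46 did not. Of 83 cytosolic ribosomal protein genes 38 were lower and 0 higher at an unadjusted p below 0.05, where 5.27% of all genes were lower. Their median log2 fold change was -0.70, and 11 were lower with no overlap, where 7.17% of all genes were. Rplp1, a protein of the ribosomal stalk, stood at 3324, 1559 and 1098 CPM in WT exosomes and at 769, 1133 and 695 CPM in those labelled DKO. Without the WT exosomes of mouse 33, 2 of 83 were lower and the median was -0.22. The count was 0 with sex as a covariate and without the exosomes of mouse 153, 1 without mouse 151, 6 without mouse 152 and 64 without WT mouse 46. Ribosomal proteins took 2.76% ± 1.30 of counts in WT and 1.83% ± 0.157 in exosomes labelled DKO (SD, n = 3, two-sided exact permutation p = 0.4, where the smallest p of 3 against 3 is 0.1). Nuclear genes of oxidative phosphorylation likewise went from 8 of 81 lower, with a median of -0.36, to 0 of 81 and -0.13 without the WT exosomes of mouse 33. Across the 11471 genes, log2 fold change and deposited gene length had a Spearman correlation of 0.246, and 0.153 without that library. It is a description over genes that share libraries.

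Mitochondrial RNA as a whole, Malat1 and Rn7sk were highest in another WT library, that of mouse 46. The 13 protein-coding genes of the mitochondrial genome had 0 called and 0 below an unadjusted p of 0.05, with a median of -0.44, and without the WT exosomes of mouse 46 the median was 0.46. The ribosomal RNA mt-Rnr2 stood at 204, 571 and 2980 CPM in WT exosomes and at 527, 462 and 227 CPM in those labelled DKO, so the group difference came from mouse 46. The mitochondrial genome took 5.98% ± 4.54 of counts in WT and 4.38% ± 1.66 in exosomes labelled DKO (two-sided exact permutation p = 0.9). Malat1, a nuclear long non-coding RNA, stood at 6.94, 2.78 and 43.1 CPM against 4.12, 4.55 and 5.50 CPM, and the RNA polymerase III transcript Rn7sk at 16.8, 2.15 and 40.3 CPM against 2.51, 5.77 and 0.978 CPM. In both, mouse 46 was the highest library, and WT mouse 33 also lay above every library labelled DKO. The log2 fold change of Rn7sk stayed negative over its 16 alternative fits, from -3.645 to -0.518. WT mouse 42 lay below every library labelled DKO for Malat1 and within their range for Rn7sk. Gas5, a host gene of small nucleolar RNAs, stood at 198, 87.3 and 64.1 CPM against 49.1, 62.4 and 40.6 CPM, with mouse 33 the highest. Identifiers without a gene name took 3.36% to 7.88% of counts in WT and 2.31% to 2.45% in exosomes labelled DKO (two-sided exact permutation p = 0.1, the smallest possible).

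**Figure D4:**
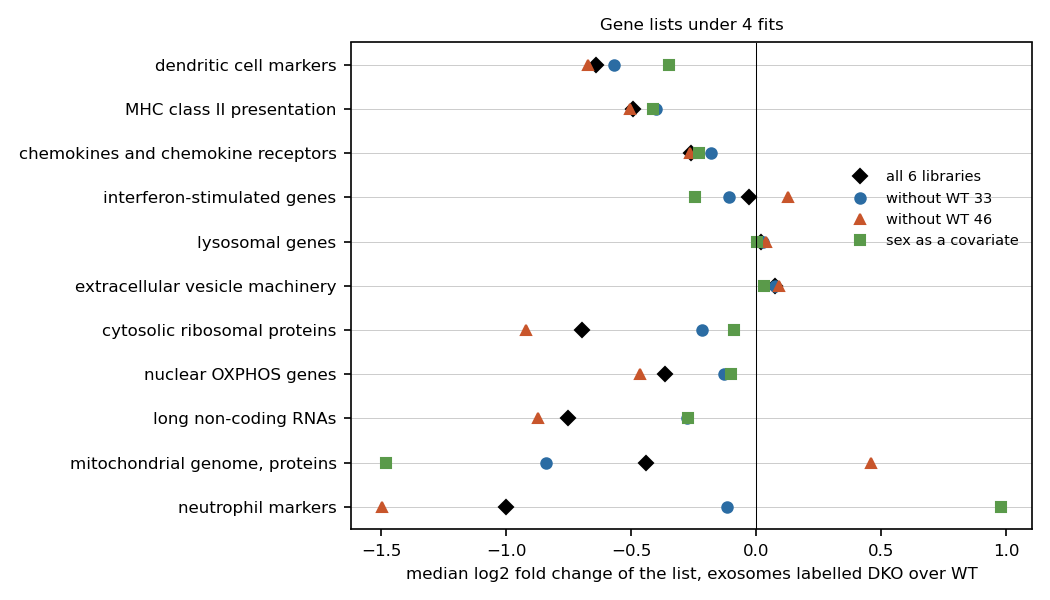
Median log2 fold change (x axis, exosomes labelled DKO over WT) of 11 gene lists with all 6 libraries (black), without WT mouse 33 (blue), without WT mouse 46 (orange) and with sex as a covariate (green). Dendritic cell and class II lists stay below 0 in these 4 fits, whereas the neutrophil and mitochondrial lists lie on both sides of 0.

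Markers of neutrophils, mast cells and basophils differed between WT libraries as well, whereas the summed B and plasma cell markers differed between the groups. Neutrophil markers, 20 genes of which 0 were at 0 in all libraries, summed to 4817, 3153 and 1540 CPM in WT exosomes and to 2816, 2572 and 1750 CPM in those labelled DKO, groups that overlap. Mpo, the granule peroxidase, stood at 10.9, 7.61 and 1.24 CPM against 1.93, 2.12 and 0.367 CPM. The median log2 fold change of the neutrophil list was -1.001, and -0.12 without the WT exosomes of mouse 33 and 0.98 with sex as a covariate. Mast cell and basophil markers, with Cma1, Il13, Mcpt4, Tpsab1 and Tpsb2 at 0 in all 6 libraries, summed to 361 to 504 CPM and 279 to 408 CPM, and Hdc, which makes histamine, stood at 16.6, 9.85 and 1.80 CPM against 4.51, 1.09 and 2.08 CPM. B and plasma cell markers summed to 364 to 407 CPM in WT and 285 to 321 CPM in those labelled DKO, with Ebf1, Igll1 and Tnfrsf17 at 0. Of 17 tested, 5 were lower and 0 higher at an unadjusted p below 0.05, where 5.27% and 2.97% of all genes were. With no overlap 5 were lower and 2 higher, where 7.17% and 7.45% of all genes were. The immunoglobulin heavy chain gene Ighm stood at 27.2, 19.2 and 12.4 CPM against 9.08, 8.02 and 8.68 CPM, and Cd79b, of the B cell receptor, at 2.58 ± 1.85 against 0.225 ± 0.336 CPM. In cells of the same mice Ighm was called (log2 fold change -1.388, adjusted p = 0.0496, edgeR). At an unadjusted p below 0.05 in cells, 8 of 17 B and plasma cell genes were lower and 0 higher. Of 17 neutrophil genes 8 were lower and 1 higher there. Over all 11422 genes tested in both, 657 were lower and 596 higher in cells. T and NK cell markers summed to 171 to 249 CPM against 240 to 356 CPM, with 8 of 26 genes at 0, among them Trac, Trbc1 and Trbc2, the constant regions of the T cell receptor. Erythroid markers summed to 45.6 to 68.9 CPM against 37.5 to 52.1 CPM, platelet and megakaryocyte markers to 838 to 1114 CPM against 797 to 1156 CPM, and fibroblast and stromal markers to 86.7 to 118 CPM against 102 to 138 CPM. The part of these cells in the class II and chemokine differences was not tested.

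Cell cycle genes had 5 of 39 lower and 0 higher at an unadjusted p below 0.05 and 0 called, with a median log2 fold change of -0.17. Of all genes, 2.97% were higher and 5.27% lower at that threshold. Ccnb1, the mitotic cyclin, stood at 15.1, 9.13 and 12.5 CPM in WT exosomes and at 4.31, 6.62 and 5.75 CPM in those labelled DKO (-1.13 ± 0.31). Ccnd2 (-0.66 ± 0.18), a cyclin of early cell cycle entry, and Rrm2 (-0.71 ± 0.22), a subunit of ribonucleotide reductase, also had WT libraries that all lay above the others. Among 178 solute carriers 3 were higher and 10 lower at that threshold, where 2.97% and 5.27% of all genes were. Slc2a6, a hexose transporter of lysosomes, stood at 104, 85.2 and 85.1 CPM against 49.2, 58.0 and 52.1 CPM, and Slc37a2, a sugar phosphate carrier of macrophages, at 52.9, 55.4 and 53.9 CPM against 76.5, 89.7 and 74.3 CPM. Of 309 zinc finger genes 11 were higher and 4 lower, beside the same shares of all genes.

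None of the most abundant transcripts was called. Per length, the same 5 genes led both groups: ferritin heavy chain Fth1, lysozyme Lyz2, COX1 of the mitochondrial genome, ferritin light chain Ftl1 and the chemokine Ccl6. Fth1 reached 87060 ± 12770 TPM in WT exosomes and 112600 ± 5094 TPM in those labelled DKO, and Lyz2 42180 ± 7047 against 53210 ± 1338 TPM (SD, n = 3). On the TMM scale the log2 fold changes were 0.10 for Fth1 (95% interval -0.36 to 0.57) and 0.08 for Lyz2 (-0.29 to 0.46), so changes within those intervals were not detectable here. COX1 had -0.62 (-1.81 to 0.58) and Ftl1 -0.52 (-1.25 to 0.20).

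Few microRNA genes had counts in these libraries, which were read as 80 bp paired ends and counted per gene. A mature microRNA of 21 bases is shorter than such a read, so the level of mature microRNA in exosomes was not tested. Of 566 microRNA identifiers among the genes compared, 66 had a count in any exosome library and 4 passed the filter, Mir682, Mir3960, Mir703 and Mir425, with 0 called. The mature sequences of miR-682 and miR-703 (RefSeq, GRCm38.p6) are shown, with the seed, bases 2 to 8, in capitals, because the same bases stand in abundant transcripts.
mmu-miR-682: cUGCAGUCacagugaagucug
mmu-miR-703: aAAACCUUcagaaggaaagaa
The seeds of the pair differ. The 21 bases of miR-682 occur in transcripts of 12 other genes of the GENCODE M21 annotation, among them Rpl37a, a ribosomal protein, and those of miR-703 in 4, among them Eef1a1, a translation elongation factor. Mir682 held 16009, 21035 and 7681 counts in WT exosomes and 9652, 12663 and 5414 in those labelled DKO, or 2138, 942 and 730 against 622, 769 and 662 CPM, and mouse 33 was again the highest. Reads of Mir682 and of these transcripts cannot be told apart in a count per gene. Mir703 held 79, 106 and 61 counts against 119, 115 and 70.

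The cells of the same mice were set beside the exosomes. In cells labelled DKO against WT cells, 31 genes rose and 18 fell, 0.395% of 12398 tested, and all 4 genes called in exosomes were called there with the same direction. The number called in cells was 112 without WT mouse 33, 22 without WT mouse 42, 14 without mouse 151 and 5 without mouse 152. The shared genes make up 100% of the exosome calls and 8.16% of the cell calls. Of the 46 cell calls tested in exosomes, 40 had the same sign, 22 with an unadjusted p below 0.05, where the mice but no library are shared. Over all genes tested in exosomes, 8.24% had such a p in either direction, and the share of all genes with the same sign was not counted. The cell calls were not spread evenly: 10 of the 73 genes within 5 Mb of Sidt2 were among them. The cell calls with the other sign in exosomes were ATP6, ND4, COX2, COX1 and Prdx1, higher in cells labelled DKO, and H2-M2, lower there. All 13 mitochondrially encoded protein genes were higher in cells at an unadjusted p below 0.05. Their median was 0.63 in cells and -0.44 in exosomes, where it turned positive without WT mouse 46. In cells Sidt2 fell by 7.67 ± 0.23 on the log2 scale, and Sidt1 (10.53 ± 0.35), Wdfy1 (2.91 ± 0.15), Cadm1 (6.66 ± 0.28), Il18 (1.49 ± 0.16), Mcam (2.37 ± 0.33), Fabp7 (1.83 ± 0.31), Vps13c (0.93 ± 0.14), Atp6v0d2 (0.76 ± 0.11) and Ctsk (0.84 ± 0.15) rose. Slc37a4 fell by 1.05.

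The class II, chemokine and maturation genes named above were called neither in exosomes nor in cells. At an unadjusted p below 0.05 in cells, 6 of 17 class II genes were lower and 1 higher. Of 28 chemokine and receptor genes 1 was lower and 4 higher there, and of 30 dendritic cell genes 3 were lower and 2 higher. Over all 11422 genes tested in both, 657 were lower and 596 higher in cells. The medians of these lists were nearer 0 in cells. The median of the dendritic cell list was -0.19 in cells against -0.64 in exosomes, that of the class II list -0.19 against -0.49, and that of the chemokine list 0.01 against -0.26. Ccl4 had a log2 fold change of -0.02 ± 0.18 in cells against -0.80 ± 0.18 in exosomes, and H2-Aa -0.19 ± 0.14 against -0.94 ± 0.21. Rfc1 and Ppip5k1, higher in exosomes labelled DKO, stood at -0.00 ± 0.12 and -0.01 ± 0.15 in cells. Whether the genotype difference itself differed between exosomes and cells was tested as an interaction over all 12 libraries. It called 0 of 12270 genes, or 0% (edgeR, 727 genes, 5.93%, at an unadjusted p below 0.05; no other tool was run for it), and 0 with the mouse as a replicate block (570 genes at an unadjusted p below 0.05). Rfc1 and Ppip5k1 had the smallest unadjusted p among named genes, 0.000805 and 0.000834, at an adjusted p of 0.715, and Tmem176b had 0.00145.

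**Figure D5:**
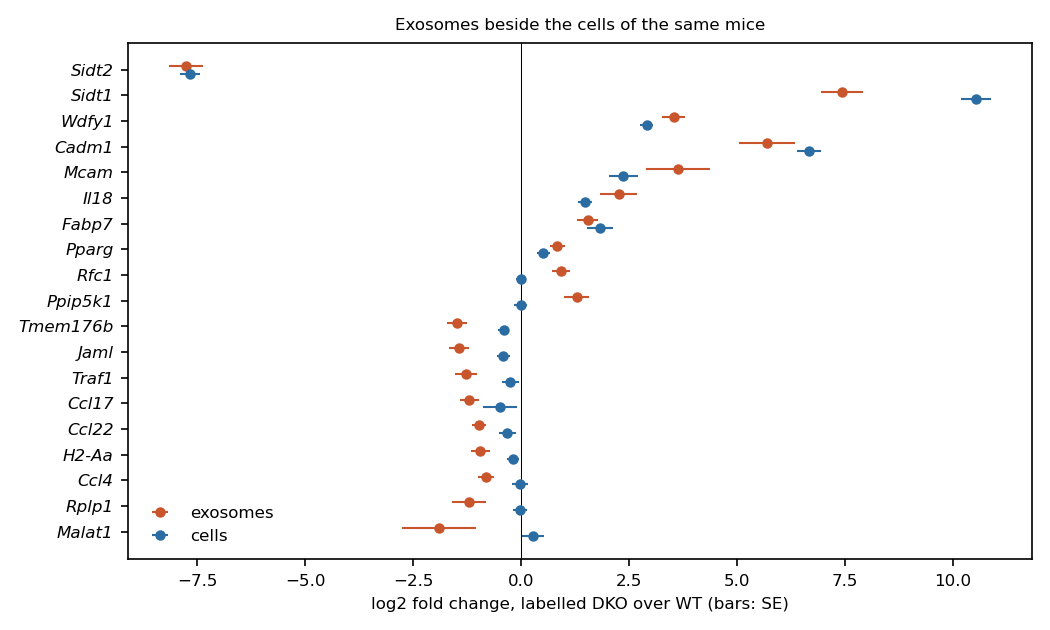
Log2 fold change (x axis, labelled DKO over WT) of 19 named genes in exosomes (orange) and in cells of the same mice (blue). Bars show the approximate standard error, which can be too small for genes near 0 counts in a group. The called genes lie far from 0 in both, whereas Rfc1, Ppip5k1, Ccl4 and Rplp1 lie close to 0 in cells only.

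The precision of the exosome comparison was lower than that of the cells. The median 95% interval of a gene reached 0.61 on the log2 scale to either side of its value in exosomes and 0.35 in cells, and the common biological coefficient of variation was 0.294 against 0.160. Nothing in the labels says whether the cultures were handled together, so p-values measure the spread between these mice and libraries, and sex and genotype are partly confounded.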

How the data were processed

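Counts per gene of 12 libraries were used, and the authors made them with featureCounts on the mouse build mm10, per the submitters' processing notes. Aligner, annotation and strandedness: not given in the sources used here. Per the labels, libraries were read as 80 bp paired ends. Symbols and places came from RefSeq GRCm38.p6 by gene identifier, for 25275 identifiers. The 6 exosome libraries were fitted on the whole table with edgeR 4.0.16 (R 4.3.3) by the quasi-likelihood F test, with TMM scaling, robust fits, group-wise filtering of low counts and p-values adjusted after Benjamini and Hochberg, and genes on X and Y were left out of what is reported. A gene is named called where its adjusted p is below 0.05. The script was tested on simulated data. TPM used the deposited gene length.

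Genes and lists were chosen with earlier results of these data known. Named genes are Sidt1 and Sidt2, and the 15 called genes with the largest fold change per direction that have a mean log2 CPM above 1, no overlap of libraries and no predicted symbol. With fewer than 5 of these in a direction, they are the 10 with the smallest p there. Added to them are up to 4 genes with the smallest p per list, called genes within 10 Mb of Sidt1 or Sidt2 and the 5 most abundant per length. Alternatives were other scalings and filters, DESeq2 1.42.0, limma 3.58.1 voom, leaving out each library, sex as a covariate, and a fit on 12 libraries. A mouse's number marks its cells and its exosomes in the labels, so the numbers pair those libraries. For mice 33, 42, 46, 151, 152 and 153, the correlation between the deviations of cells and exosomes from their groups was -0.007, 0.045, 0.069, 0.228, 0.211 and 0.177. No pair of replicate libraries agreed within sampling noise.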

Additional observations from a re-analysis of the deposited data

How the results depend on the processing

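Of the genes called in exosomes, 4 in all, the count was 4 with DESeq2 size factors, total-count scaling, scaling without mitochondrial and the 20 most abundant genes, a filter of 1 CPM and removal of X, Y and unplaced genes. It was 20 with no filter on low counts, 33 with the DESeq2 test, 137 with limma voom, 15 in the fit on all 12 libraries and 9 with sex as a covariate. The cause was not tested. Leaving out 1 library gave 3 to 137, the highest without the WT exosomes of mouse 46 (9 higher, 128 lower). Total-count scaling moved the split at an unadjusted p below 0.05 from 341 higher and 604 lower to 841 and 200. In cells, with 49 called, leaving out 1 library gave 5 to 112, namely 112 without WT mouse 33, 22 without WT mouse 42, 14 without mouse 151 and 5 without mouse 152. The interaction gave 0 with a replicate block and 0 without any single library. The share of the mitochondrial genome, -1.60 points in all, ran from -3.465 to 0.924 when 1 library was left out. Among named genes that were not called, the sign turned with sex as a covariate for Vps37b (0.38), Mpo (0.31), Ftl1 (0.31) and Hdc (0.51), and with limma voom for Malat1 (0.43) and Lyz2 (-0.042). When 1 library was left out, Malat1 ran from -2.42 to 0.009, COX1 from -0.95 to 0.17 and mt-Rnr2 from -2.10 to 0.10, each highest without WT mouse 46. Depth limits genes at a few counts.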
